A study of Medicago sativa with 6 samples.

Results

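The genes described here are those of alfalfa (Medicago sativa, a tetraploid forage legume) that were abundant in both roots and nodules and low in every aerial tissue that was sequenced. A gene was a member when both its root and its nodule level were at 50 TMM CPM or more and the lower of them was at least 4 times the highest of flower, leaf, seedpod and stem. The 2 underground levels also had to be less than 10-fold apart. TMM CPM is the number of counts per 1000000 of a library total scaled by the trimmed mean of M-values. Of 164633 genes in the count table, 228 met the rule, which is 0.138%. The genes were chosen by their measured levels in the same 6 libraries that are described, so their high underground and low aerial levels are the choice itself and carry no test.

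All samples came from the genotype RegenSY27x, and no treatment or mutation is labelled for any of them. The plants had 16 hours of light, with days at 22 °C and nights at 18 °C. The tissues were flower (the sample title names flower buds), leaf, nodules, roots, seedpod and stem. RNA of 3 harvested replicates was pooled into 1 library per tissue, so differences could not be set against a spread between replicates, and p-values are not used. The growth protocol states an age of 8 weeks, while the label of the developmental stage gives 20 in a unit that could not be read. Intervals are 95% intervals of counting error and leave out the variation between plants, which the pools averaged.

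Legume nodules are organs that form on roots when compatible soil bacteria, the rhizobia, enter the root and induce divisions in its inner tissues. Inside infected nodule cells the bacteria reduce dinitrogen to ammonium, and the plant pays with sugar delivered by the phloem. Roots and nodules therefore share an origin and a vascular supply, live below ground without photosynthesis, and differ in what they do: roots take up water and mineral ions, while nodules assimilate fixed nitrogen under low free oxygen. The identifiers of the table carry no gene names for these members, and 0 of them matched the 63463 genes listed for a different assembly of alfalfa, so the functions of single members are not given and tissue markers could not be checked. The genome build is not given in the sources used here, and positions are those of the authors' annotation.

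Library totals ran from 8568581 counts in roots to 9883512 in nodules. The members had at least 476 counts in roots and at least 411 in nodules, so their underground levels are little affected by counting error. In bulk libraries like these, fewer cells of a type and less RNA per cell cannot be told apart. The members took 6.06% of the root counts and 4.07% of the nodule counts. In the aerial libraries they took 0.140% of the counts in stem, 0.116% in seedpod, 0.104% in flower and 0.0971% in leaf.

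The root level of the members ran from 50.5 to 3823 TMM CPM with a median of 136. The nodule level ran from 50.2 to 2120 with a median of 126. The 2 medians were thus close, but the 2 organs were within 1.5-fold in only 88 of the 228 members. In the aerial tissues the medians were 1.39 in leaf, 1.15 in stem, 1.11 in seedpod and 0.795 in flower. The most that any member reached above ground was 167 TMM CPM, in seedpod. A count of 0 was found for 9 members in leaf, 10 in stem, 8 in seedpod and 13 in flower, and no member was at 0 in all 4.

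**Figure D1:**
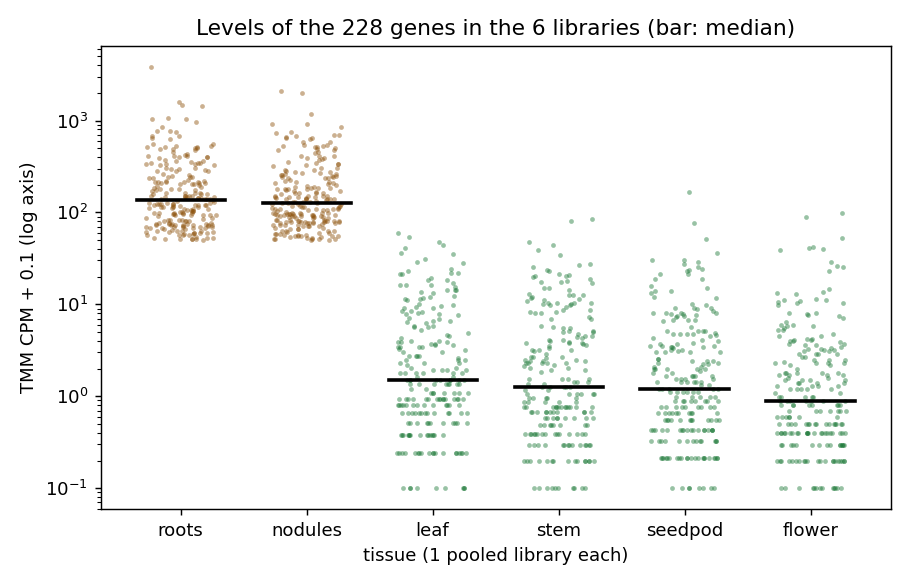
TMM CPM of the 228 genes in each of the 6 libraries (points, log axis after adding 0.1; bars, medians). Roots and nodules have medians of 136 and 126, and the aerial tissues have medians of 0.795 to 1.39.

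The members were not equally strong. The lower of the 2 underground levels had a median of 92.1 TMM CPM, 95 members had 100 or more and 44 had 200 or more. Per 1000 nucleotides of coding length, the measure that allows genes to be compared, the lower level ran from 13.1 to 1218 with a median of 85.1. On this scale the highest member was a gene with 3 exons and only 219 coding nucleotides on chromosome 2.4 (26153620 to 26154461), at 684 TMM CPM in roots and 267 in nodules. It had 9.92 in seedpod, 8.91 in leaf, 2.30 in stem and 1.19 in flower, which are all far below both underground levels.

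The member with the highest counts was MS.gene37357 on chromosome 8.4 (74755577 to 74760274, 9 exons, 2607 coding nucleotides). Its root level was 3823 TMM CPM (interval 3784 to 3863) and its nodule level 1998 (1968 to 2029), with 39.9 in flower, 30.6 in seedpod, 9.47 in leaf and 5.57 in stem. Roots stood 1.91-fold above nodules (1.88 to 1.95), and nodules stood 50.04-fold above flower (45.3 to 55.4). This gene is 1 of 3 members on chromosome 8 that have 9 exons and 2472 to 2607 coding nucleotides.

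Another of those 3 is MS.gene07844 on chromosome 8.3 (71825073 to 71830329, 2595 coding nucleotides), which differed from MS.gene37357 in its balance. It had 1185 TMM CPM in nodules (1162 to 1209), 856 in roots (837 to 874.5), 167 in seedpod, 98.0 in flower, 17.2 in stem and 3.34 in leaf. Nodules were 1.39-fold above roots (1.34 to 1.43), and roots were only 5.13-fold above seedpod (4.85 to 5.42). So this gene was also well expressed in the reproductive organs, while leaf was nearly empty of it.

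MS.gene048690 on chromosome 3.2 (60754256 to 60757731, 12 exons, 1071 coding nucleotides) was the next among those higher in roots. Its root level was 1429 TMM CPM (1405 to 1453) and its nodule level 748 (729 to 767), beside 88.4 in flower, 84.1 in stem, 51.0 in seedpod and 17.1 in leaf. It was thus present in every tissue, with roots 1.91-fold above nodules (1.85 to 1.97) and nodules 8.46-fold above flower (7.89 to 9.09).

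MS.gene063062 on chromosome 7.3 (53326893 to 53328646, 2 exons, 1665 coding nucleotides) had the highest nodule level of the members. It had 2120 TMM CPM in nodules (2088 to 2151), 449.5 in roots (436 to 463), 52.2 in flower, 47.4 in leaf, 34.1 in stem and 12.03 in seedpod. Nodules were 4.72-fold above roots (4.56 to 4.88), and roots were 8.60-fold above flower (7.86 to 9.44). Genes of the same exon lengths on chromosome 7.2 and 7.4 were members too, with 923 and 842 TMM CPM in nodules and 252 and 244 in roots. The fourth, on chromosome 7.1 (start 50871987), had 1155 in nodules and 169 in roots but missed the rule because stem reached 52.4, a ratio of 3.22.

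Of the other members with the highest lower level, 3 lay on chromosome 6 and were close to even between roots and nodules. The gene on chromosome 6.1 (24951990 to 24956511) reached 683 TMM CPM in roots and 646 in nodules, with 11.9 in stem and 8.36 in leaf. The gene on chromosome 6.2 (38121236 to 38125549) had 517 and 498, and the interval of its root-to-nodule ratio, 0.996 to 1.08, included equality. The gene on chromosome 6.3 (37322168 to 37326560) had 561 and 475. Each of the 3 has 3 exons of the same lengths (1059 nucleotides), and in each stem was the highest aerial tissue, at 6.91 to 11.9.

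The rest of the 10 were a gene on chromosome 4.4, one on chromosome 2.3 and 2 neighbours on chromosome 5.3. The gene on chromosome 4.4 (18689128 to 18691371, 2 exons) had 749 TMM CPM in roots, 627 in nodules and 34.8 in leaf. The gene on chromosome 2.3 (59964935 to 59966929, 4 exons) leaned to roots, with 1589 against 526 in nodules and 18.8 in stem. The neighbours on chromosome 5.3 are described with the runs of nearby members.

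Roots and nodules were compared member by member to ask how evenly the shared genes were divided between the 2 organs. Roots were higher for 124 members and nodules for 104, so 54.4% leaned to roots, against 45.9% of the 2499 genes that had 50 TMM CPM or more in both. The median ratio of roots to nodules was 1.07, against 0.969 over those 2499 genes. This split depends on the scaling: with library totals, which raise every ratio of roots to nodules by 0.41 on the log2 scale, 65.8% of the same 228 genes and 70.0% of the 2499 leaned to roots, so that the order of the 2 shares turned. By counting error alone, 115 members were higher in roots, 97 were higher in nodules and 16 had an interval that included equality.

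Differences of 2-fold or more toward roots were more frequent among the members than among all genes at their level. Roots were at least 2-fold higher in 45 members (19.7%), against 7.92% of all genes at 50 or more in both, and at least 4-fold higher in 14 (6.14%), against 1.72%. Nodules were at least 2-fold higher in 39 members (17.1%), against 13.8%, and at least 4-fold higher in 9 (3.95%), against 4.04%. The nodule side thus lay near the background. Scaled by library totals, 75 of the same members (32.9%) were at least 2-fold higher in roots, against 15.7% of the 2499, and 25 (10.96%) in nodules, against 8.80%. The rule itself bounds these ratios at 10-fold and was met in the same libraries, so the shares are a description. In 88 members the 2 organs were within 1.5-fold.

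The members at least 2-fold higher in roots also stood further from the aerial tissues. Their lower level was a median of 55.6 times the highest aerial level, against 32.4 times for the 144 members within 2-fold and 10.6 times for the 39 at least 2-fold higher in nodules. The highest aerial level itself had medians of 2.23, 3.68 and 7.69 TMM CPM in these 3 sets. Their median coding lengths were 831, 1104 and 1218 nucleotides.

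**Figure D2:**
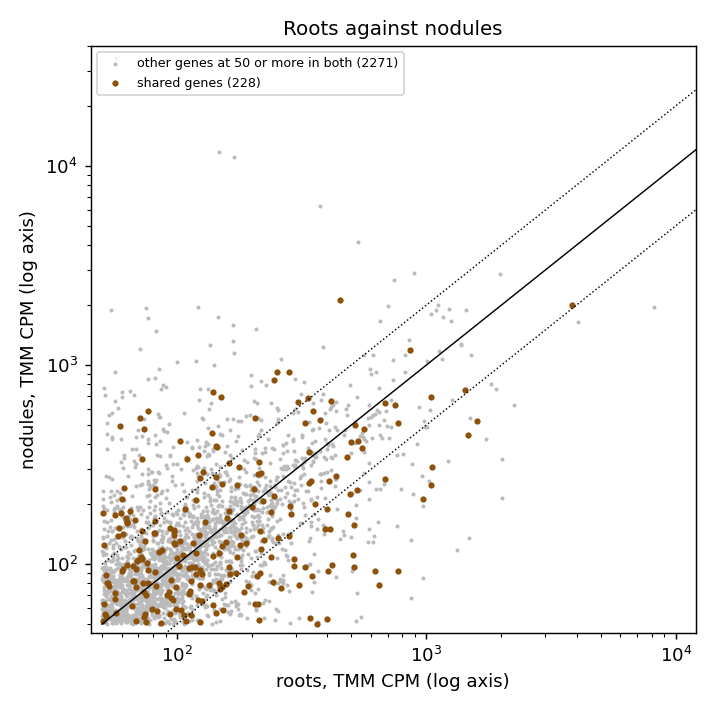
Root level against nodule level (TMM CPM, both axes log) for the 228 shared genes and the other 2271 genes at 50 or more in both. The solid line marks equal levels and the dotted lines 2-fold differences, and 144 of the shared genes lie between the dotted lines.

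The 4 members that leaned most to roots all lay on chromosome 1. On chromosome 1.1 (67413746 to 67414597, 1 exon, 852 nucleotides) a gene had 771 TMM CPM in roots, 92.9 in nodules, 1.67 in leaf, 1.25 in stem, 0.695 in flower and 0.446 in seedpod. Its ratio of roots to nodules was 8.30 (7.70 to 8.95). A single-exon gene of the same length on chromosome 1.4 (73113164 to 73114015) had 643 in roots and 78.4 in nodules, a ratio of 8.21 (7.57 to 8.92). These 2 genes of equal length, on 2 haplotypes, therefore had nearly the same balance. A gene with 4 exons on chromosome 1.2 (71245421 to 71249915) followed at 7.52 (6.81 to 8.33), with 398 in roots, 52.9 in nodules and 3.55 in stem. Another 4-exon gene, on chromosome 1.4 (71314829 to 71317555), had 364 in roots, 50.2 in nodules and 0.836 in leaf, a ratio of 7.245 (6.54 to 8.045).

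At the nodule end the leading gene was a single-exon gene on chromosome 7.3 (7824010 to 7825272). It had 495 TMM CPM in nodules, 59.0 in roots, 10.2 in stem, 3.90 in leaf, 1.59 in flower and 1.45 in seedpod, with nodules 8.39-fold above roots (7.67 to 9.18). A 17-exon gene on chromosome 1.4 (357520 to 363017) had 587 in nodules, 76.5 in roots and 13.7 in seedpod, a ratio of 7.68 (7.10 to 8.32). A single-exon gene on chromosome 7.4 (7886588 to 7887826) had 541 in nodules, 71.3 in roots and 0.960 in stem, a ratio of 7.59 (6.997 to 8.24). Both ends of the range thus held genes with a single annotated exon, a trait of 18.9% of all members. Of those at the nodule end, the one on chromosome 7.3 had some stem signal. The fourth, an 11-exon gene on chromosome 5.3 (16649673 to 16653136), had 476 in nodules, 73.5 in roots and 2.59 in stem, a ratio of 6.48 (5.97 to 7.03).

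Roots and nodules did not share their high genes equally. Of 539 genes at 50 TMM CPM or more in roots and at least 4 times every aerial tissue there, 228 (42.3%) were members, and the nodule level was a median of 41.2% of the root level. Of 1227 genes that passed the same limits in nodules, the same 228 were 18.6%, and the root level was a median of 14.4% of the nodule level. The nodule level lay under 10% of the root level in 84 of the 539 genes (15.6%), while the root level lay under 10% of the nodule level in 515 of the 1227 (42.0%). How much root tissue the nodule harvest held, or nodule tissue the root harvest, was not tested.

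The rule limits the level above ground only by its maximum. The ratio of the lower underground level to the highest aerial level ran from 4.06 to 689 with a median of 27.7, and from 7.90 to 94.4 between the quartiles. It was 10 or more in 158 members and 100 or more in 49. In 57 members every aerial tissue was below 1 TMM CPM, in 100 the highest was from 1 to under 10, and in 71 it was 10 or more. Over the genes at 50 or more in both roots and nodules, a ratio of 4 or more was met by 9.52%.

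The highest of the 4 aerial tissues was leaf for 101 members (44.3%), stem for 56 (24.6%), seedpod for 37 (16.2%) and flower for 34 (14.9%). In 57 members, 31 of them in the leaf tally, this highest level was below 1 TMM CPM and rested on few counts. A single count is 0.139 TMM CPM in leaf, 0.111 in seedpod and 0.0993 in flower, so leaf leads where counts are equal. How many of the genes compared next had such low aerial levels was not counted. Over the 2499 genes at 50 or more in both, leaf was highest for 43.5%, flower for 22.6%, seedpod for 19.6% and stem for 14.3%. The leaf share of the members thus lay at the background. Stem was more frequent among the members and flower less so, as a description. With library totals and the 217 members chosen anew, the order was the same, with 79 for leaf, 66 for stem, 41 for seedpod and 31 for flower. The tally over the 2499 genes was not made with that scaling, so the comparison with them holds for TMM only.

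**Figure D3:**
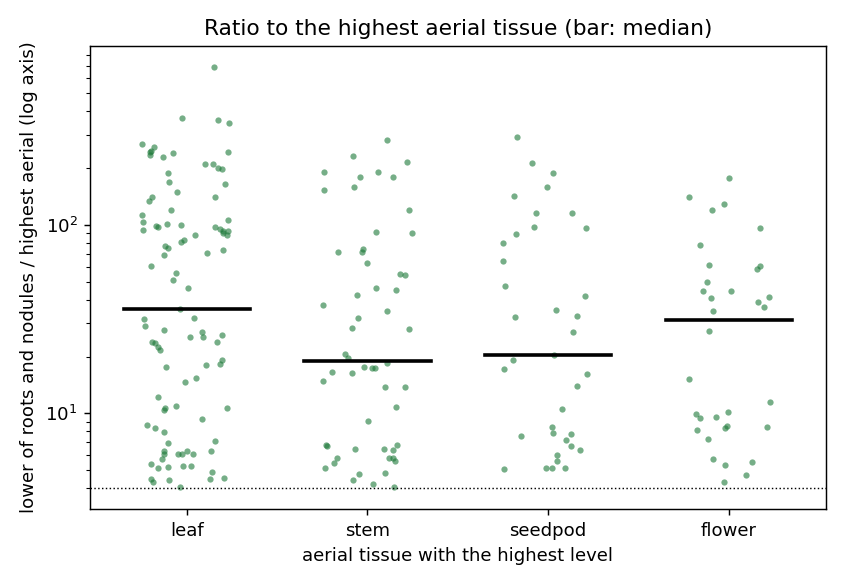
Ratio of the lower underground level to the highest aerial level (log axis) for each of the 228 genes, by the aerial tissue with the highest level. Bars are medians, at 35.6 for leaf, 19.0 for stem, 20.4 for seedpod and 31.1 for flower, and the dotted line is the limit of 4.

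At the clean end, 3 members had a single count in the highest aerial library. A gene on chromosome 4.4 (45528978 to 45530900, 3 exons) reached 112 TMM CPM in roots and 96.0 in nodules, against 0.139 in leaf, 0.111 in seedpod, 0.0993 in flower and 0 in stem. Its ratio of 689 has an interval of 123 to 27248, so the size of the ratio is not known. A 7-exon gene on chromosome 5.2 (9817109 to 9819568) had 124 in nodules and 51.1 in roots, for a ratio of 367 (65.6 to 14532). A 2-exon gene on chromosome 5.4 (71623938 to 71625634) had 180 in nodules and 50.5 in roots, for a ratio of 363 (64.8 to 14351). A 9-exon gene on chromosome 8.4 (74779123 to 74784013) had 200.3 in roots and 193 in nodules with 0.557 in leaf, a ratio of 347 (135 to 1276). The last, with 3 exons and 462 nucleotides on chromosome 2.1 (38148710 to 38150611), had 146 in nodules and 97.6 in roots with 0.334 in seedpod, a ratio of 292 (99.6 to 1418).

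Relative to the counts below ground, the highest aerial count was small in most members. It was a median of 1.27% of the summed root and nodule count, and in 42 members it was at most 0.2%.

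At the other end, the members closest to the limit had 1 or more clearly expressed aerial tissues. A 2-exon gene on chromosome 8.4 (79766967 to 79767787) had 288 TMM CPM in nodules, 217 in roots and 53.6 in leaf, against 4.68 in seedpod, 1.34 in stem and 0.497 in flower. A 7-exon gene on chromosome 3.1 (54085194 to 54090231) had 512 in nodules, 325 in roots and 79.9 in stem, against 36.2 in seedpod, 11.02 in flower and 1.67 in leaf. Their ratios were 4.06 (3.64 to 4.53) and 4.07 (3.77 to 4.399). The next were a single-exon gene on chromosome 7.2 (3563140 to 3564270) at 4.21, a 2-exon gene on chromosome 5.2 (1977243 to 1978621) at 4.31, led by flower at 28.6, and a 21-exon gene on chromosome 2.4 (2420309 to 2427496) at 4.31, led by leaf at 16.2. Of the 228, 214 had a ratio whose interval stayed at 4 or above.

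In 19 members a single aerial tissue stood out, at 10 TMM CPM or more and at least 4 times the next aerial tissue, a limit chosen after the values were seen. It was leaf in 10, stem in 4, flower in 3 and seedpod in 2. The same tally was not made for genes outside the set. Whether the 19, or the leaf cases among them, are more than abundant genes in general would give is therefore not known. The highest leaf level among the 10 was that of a single-exon gene on chromosome 6.2 (12410619 to 12412643), with 59.6 TMM CPM in leaf and 0.894 to 2.90 in the other 3, beside 530 in nodules and 376 in roots. The highest stem level among the 4 was that of a 2-exon gene on chromosome 7.3 (start 40521451), with 22.8 in stem and 0.139 in leaf, beside 215 in roots and 147 in nodules. A seedpod case lay on chromosome 5.3 (11957983 to 11959321), with 76.3 in seedpod and 10.8 to 12.4 in the other 3.

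The most abundant members led by leaf were the gene on chromosome 4.4 (start 18689128) already given and a 2-exon gene of 531 nucleotides on chromosome 1.1 (59085138 to 59086069). The latter had 1474 TMM CPM in roots, 445 in nodules and 3.34 in leaf, with 1.44 to 2.01 in the remaining tissues. It was nearly limited to the underground tissues, with nodules 133-fold above leaf (89.4 to 208). Flower led in MS.gene37357 and MS.gene048690, and stem led in the genes on chromosome 6.1 (start 24951990) and 2.3 (start 59964935). Seedpod led in MS.gene07844 and in a gene on chromosome 5.3 (start 11976851) at 21.3, where leaf was level with it at 21.0.

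The limits of the rule cut through a continuous range. Just inside the level limit were genes with 50.2 and 50.5 TMM CPM in the lower organ, and just outside it were genes with 49.97 on chromosome 1.3 (78740586 to 78746931) and 49.4 on chromosome 7.1 (23731258 to 23735383). Just outside the aerial limit were genes with ratios of 3.96 on chromosome 1.4 (68869841 to 68870446) and 3.92 on chromosome 2.3 (20494213 to 20499031), the latter with 1977 in nodules and 699.98 in roots. Another 10 genes met the first 2 conditions but had the organs 10-fold or more apart, 6 with nodules and 4 with roots higher. The closest of these were a gene on chromosome 8.1 (59514975 to 59515631) at 10.1-fold and one on chromosome 3.4 (33075493 to 33076169) at 10.4-fold.

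The gene models, which the rule did not use, were next compared with those of other sets. The authors' exon lengths summed to a multiple of 3 in 226 of the 228, so they are called coding lengths. The members had a median of 1071 nucleotides (quartiles 716 and 1581), against 1149 for the genes at 50 or more in both, 979.5 for 268 root-enriched genes and 997.5 for 920 nodule-enriched genes. An enriched gene had 10 TMM CPM or more in its organ and at least 10 times the level of every other library. Of the members, 12 (5.26%) were under 450 nucleotides, against 11.8% of the genes at 50 or more in both, 11.2% of the root-enriched and 16.1% of the nodule-enriched genes. Very short genes were thus less frequent in the shared set than in any of these 3, as a description.

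The members had few exons for genes of their level. The median was 3, against 5 for the genes at 50 or more in both, 2.5 for root-enriched and 3 for nodule-enriched genes. A single exon was found in 43 members (18.9%), against 14.1% of the genes at 50 or more in both, 28.7% of root-enriched and 23.4% of nodule-enriched genes. At the other side, 32 members (14.0%) had 10 or more exons, against 23.7%, 5.60% and 7.07%. At the limit of 50 TMM CPM, the shared set thus lay between the abundant genes and the organ-enriched genes in both shares. The single-exon share moved with that limit, to 24.5% at a minimum of 20 CPM and 14.7% at 100 CPM. The enriched sets were chosen at other limits of level and ratio, so the order of the sets is a description. Among members, those with 10 or more exons had a median ratio to the aerial tissues of 15.8 and the single-exon members one of 31.5.

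**Figure D4:**
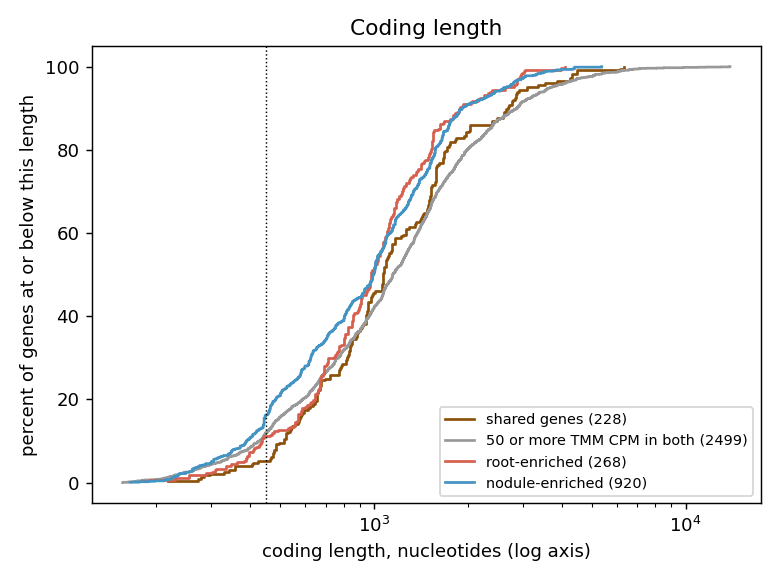
Cumulative share of genes by coding length (log axis) for the 228 shared genes, 2499 genes with 50 TMM CPM or more in both organs, 268 root-enriched and 920 nodule-enriched genes. At the dotted line of 450 nucleotides the shared genes have the lowest share, 5.26%.

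Members lay on all 8 chromosomes, from 18 on chromosome 6 to 33 on chromosome 4, with 1 on a scaffold. As a share of the genes at 50 or more in both, this was from 7.58% on chromosome 2 to 10.7% on chromosome 3. The 4 haplotypes of the assembly held 52, 61, 54 and 60 members, which were 8.64%, 9.84%, 8.72% and 9.65% of the genes at that level on each.

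Because alfalfa carries 4 chromosome sets, the annotation can list several copies of a gene. Here, same-structure copies are genes of 3 or more exons that share the chromosome number and the whole chain of exon lengths. A group can thus also hold several genes of the same chromosome sequence, as in a group of 13 copies on 4 sequences. The sequences were not compared, and how the authors' counting divided reads between copies is not known, so the level of a single copy is uncertain. The 144 members with 3 or more exons on chromosomes fell into 108 such groups, of which 67 (with 103 members) had 2 or more copies. In 22 groups 2 or more copies were members, 58 genes in all, and in 8 groups every copy was one.

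Most copies that were not members fell short of the level limit. Of 157 such copies, 17 had no count, 132 had counts but were under 50 TMM CPM in one organ or both, and 8 passed the level but had an aerial tissue above the limit. In 46 of them the lower underground level was from 10 to under 50. Of these 46 copies, from 30 groups, 42 (91.3%) stood at least 4 times above every aerial tissue, against 6.51% of all 9790 genes in the same range of level. The 46 copies were reached through a member with the same exon lengths, and the 9790 genes were not. The contrast thus depends on how the copies were chosen and is a description. How far reads were divided between copies was not tested. Summed over its copies, the group met the rule in 62 of the 67, which the choice of groups by a member largely fixes. Over the whole table, the sum met it in 83 of 15886 groups of 2 or more copies, and 21 of those 83 held no member.

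Levels of copies were uneven, but the balance between the 2 organs was closer among member copies of a group than among members at large. The highest copy of a group carried a median of 71.7% of the root counts of the group, from 32.7% to 100%. The ratio of roots to nodules differed by a median of 0.25 (log2) over the 54 pairs of members in the same group, against 1.12 over all 25878 pairs of members. Copies outside the set were not in these pairs, and the rule bounds the ratio of every member. Groups with more members gave more of the pairs. Whether reads shared between copies made their ratios alike was not tested.

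The group with most members had 7 copies on chromosome 4, of 3 exons and 1581 nucleotides, and 5 of them were members. Their root levels ran from 51.5 to 390 TMM CPM and their nodule levels from 56.0 to 150. The other two copies had 56.4 and 32.0 in roots and 39.4 and 47.1 in nodules, so in each at least 1 organ was below the level limit. Summed over the group, the level was 868 in roots and 538 in nodules, with no aerial tissue above 2.65, a ratio of 203. Almost no aerial signal was thus found in any of these copies, some of which lay near each other on the same chromosome sequence.

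In the next group, on chromosome 3 with 7 exons and 1527 nucleotides, each of the 4 haplotypes held 1 copy and each copy was a member. The copies on chromosome 3.2, 3.3 and 3.4 leaned to roots, with 495, 238 and 148 TMM CPM against 225, 109 and 80.2 in nodules, and seedpod was their highest aerial tissue at 28.9, 15.0 and 15.7. The copy on chromosome 3.1 (start 54085194) went the other way, with 325 in roots and 512 in nodules, and had stem as its highest at 79.9. One copy thus had another pattern than the remaining 3.

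The third was the group of 3 copies on chromosome 6 given above, with a sum of 1761 TMM CPM in roots and 1618 in nodules. The fourth was the 12-exon group of MS.gene048690 on chromosome 3, which summed to 2253 in roots and 1309 in nodules. Its copies on chromosome 3.3 and 3.4 had 339 and 435 in roots with 44.2 and 48.0 in stem. The copy on chromosome 3.1 had 50.2 in roots but 28.4 in nodules. In each of the 4 copies roots were above nodules and leaf was the lowest tissue.

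A group of 13 copies on chromosome 2 with 4 exons and 1068 nucleotides, chosen after its values were seen, was mixed. Its 3 members, on chromosome 2.2, 2.3 and 2.4, had 508, 1589 and 1048 TMM CPM in roots and 111, 526 and 250 in nodules, with no more than 18.8 above ground. Another 3 copies, on chromosome 2.1 (start 61258850), 2.3 (start 59836354) and 2.4 (start 59714213), were expressed in every tissue. The one on chromosome 2.1 had 107 in roots, 195 in nodules, 80.3 in stem, 77.4 in seedpod, 74.2 in leaf and 39.1 in flower. The remaining 7 copies were below 1 TMM CPM in every aerial tissue. Of these, one on chromosome 2.3 (start 59983491) had 372 in roots and 35.4 in nodules, and the others had from 0 to 35.9 in roots and from 0 to 6.36 in nodules. Genes of equal exon lengths on the same chromosome thus differed in their aerial levels.

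Members also lay next to each other. With at most 5 annotated genes between them, 34 members (14.9%) formed 16 runs, against 23.5% of the root-enriched and 31.5% of the nodule-enriched genes, of which the latter are more numerous and so more likely to meet. In 13 of the 16 runs the members had the same number of exons, and in 11 they lay on the same strand. How often neighbouring genes in general have these traits was not computed. The longest runs had 3 members.

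One run of 3 lay on chromosome 8.4 (74755577 to 74804268) and held MS.gene37357. Its neighbour (74779123 to 74784013, 9 exons) reached 200.3 TMM CPM in roots and 193 in nodules, and the third (74797396 to 74804268, 8 exons) had 515 in roots and 158 in nodules. These neighbours had no more than 0.836 in any aerial tissue, while MS.gene37357 reached 39.9 in flower.

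The other run of 3 lay on chromosome 5.3 (11957983 to 11986964), with 5 exons in each gene. Their root levels were 771, 1043 and 339 TMM CPM along the chromosome, and their nodule levels were 510, 691 and 368. The seedpod level fell along the same order, at 76.3, 21.3 and 1.34, while leaf was highest in the middle gene, at 11.003, 21.0 and 3.76. The first gene (912 nucleotides) differs in length from the other two (957 nucleotides), which belong to a same-structure group of 8 copies with 3 members.

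The run with the next highest lower level lay on chromosome 6.4 (16884833 to 16889947). It paired a 3-exon gene of 495 nucleotides, with 500.4 TMM CPM in roots, 411 in nodules and 11.7 in stem, with a single-exon gene of 570 nucleotides, with 99.3, 77.3 and 3.94. Both had stem as their highest aerial tissue.

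A pair of runs on 2 haplotypes of chromosome 2, chosen after the values were seen, had the same make-up: a 2-exon gene of 477 nucleotides beside a 2-exon gene of 474. On chromosome 2.3 the 474-nucleotide gene (55774151 to 55775404) had 1054 TMM CPM in roots, 306 in nodules and 28.8 in leaf. Its 477-nucleotide neighbour (55746793 to 55748018) had 513 in roots, 97.1 in nodules and 0.975 in leaf. On chromosome 2.1 the 474-nucleotide gene (57705593 to 57707076) had 411, 151 and 21.3, and its neighbour (57694634 to 57695859) had 402, 91.9 and 0.975. On both haplotypes only the 474-nucleotide gene of the 2 had more than 1 TMM CPM in leaf, while all 4 genes leaned to roots.

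Chromosome 5 held a similar case on the nodule side, likewise chosen after its values were seen. On chromosome 5.1 a 3-exon gene of 882 nucleotides (start 78300407) reached 338 TMM CPM in nodules, 72.5 in roots, beside a 3-exon gene of 939 nucleotides (start 78305355) with 648 and 307. On chromosome 5.2 the 882-nucleotide gene (start 82446642) had 180 and 59.4, beside a 939-nucleotide gene (start 82462482) with 389 and 144. On both haplotypes nodules were higher for both members, and leaf was their highest aerial tissue at 6.41 to 14.2. The longer member was the more abundant of the 2, also per length. Each haplotype held another gene with the same exon lengths as the 939-nucleotide member, outside the set and less abundant than the 882-nucleotide gene. These had 67.6 in nodules and 19.9 in roots on chromosome 5.1 (start 78321023), and 24.3 and 10.5 on chromosome 5.2 (start 82433182). On chromosome 5.3 a 939-nucleotide member of the same exon lengths (start 79226765) had 162 in nodules and 62.8 in roots. The 882-nucleotide gene there had 86.5 and 30.7. On chromosome 5.4 the order was mixed. The 939-nucleotide gene (start 77171106) had 71.9 in nodules and 12.6 in roots, and the 882-nucleotide genes had 58.2 and 27.5, and 49.5 and 23.3.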

How the data were processed

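Raw counts of each gene in the 6 libraries were deposited by the authors in 1 table, which also holds exon positions, strand and summed exon length, per the file headers. Per the submitters' processing notes, which give no versions, featureCounts, edgeR, Trimmomatic and FastQC were used. Items not given in the sources used here are aligner, genome build, strand setting and treatment of multiply matching reads. No annotated gene spans that overlap a member were found (0 members).

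Counts were scaled with edgeR 4.0.16 (TMM over all genes) in R 4.3.3. Where the aerial tissues were at 0, the rule used the CPM of 3 counts, 0.418 at most. Levels have exact Poisson and ratios exact conditional binomial (Clopper-Pearson) intervals. Tables and figures were made in Python 3.11.15 (matplotlib 3.10.9, scipy 1.17.1, pandas 2.3.3, numpy 2.4.6). The rule and the intervals were tested on simulated data. DESeq2 1.42.0 gave alternative size factors.

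The members and sets were chosen with earlier results of these data known. By identifier, 2 members per direction (roots or nodules higher) with the highest lower level were named. By position, the members named were the 10 with the highest lower level, those at the ends of each ratio or next to a limit, the 2 most abundant per leading aerial tissue, the 4 largest same-structure groups (equal numbers ordered by summed level) and the 3 longest runs (likewise).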

Additional observations from a re-analysis of the deposited data

How the results depend on the processing

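No paired analysis was possible because each tissue is 1 pooled library. The member count of 228 became 515 at a minimum of 20 CPM and 95 at 100 CPM, by construction of these limits. Under other scalings it was 230 with DESeq2 size factors (227 shared with the 228), 217 with library totals (196 shared), 200 with upper-quartile factors and 227 with TMM from filtered genes. It was 272 at 3 times and 158 at 10 times the aerial tissues, 205 at less than 4-fold apart, and 236, 308, 248 or 266 when flower, leaf, seedpod or stem was left out of the rule. Counting copies as 1 gave 192. The median coding length was 1072.5 with 1 gene per same-structure group, 1083 at 20 CPM, 1059 at 100 CPM and 1031.5 at 10 times the aerial tissues. With members chosen anew under library totals, 121 of 217 were higher in roots, 57 at least 2-fold, and 34 were at least 2-fold higher in nodules. Of 76 root-to-nodule ratios of 19 named genes under the 4 other scalings, 0 changed side, but 20 left their interval of counting error. With library totals the 2 largest ratios of roots to nodules became 11.03 and 10.9, past the 10-fold limit of the rule. With 2 or more exons required, a setting chosen after seeing the data, 30 groups held several members in place of 22. Depth limits the lowest aerial values only.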
